A study of Mus musculus with 18 samples.

Results

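The growth factor genes followed here were 9 symbols chosen by name, Igf1, Pdgfa, Pdgfb, Pdgfc, Vegfb, Hgf, Hbegf, Areg and Osm. All 9 were found among the 13759 genes counted in metastasis-associated macrophages (MAMs). The question was whether MAM subsets that differ in F4/80 also differ in the growth factor transcripts they hold. MAMs were sorted from liver metastases (LM) that grew after MC38 cells were injected into the spleen of female C57BL/6J mice. MC38 is a mouse colon adenocarcinoma line syngeneic with this strain. The F4/80high subset (lin-CD45+CD11b+F4/80high, 3 libraries) was compared with the F4/80low subset (lin-CD45+CD11b+F4/80low, 3 libraries), which the study also calls F4/80int. No genotype or drug distinguished the subsets, and all 6 libraries came from metastasis-bearing livers, so the data hold no macrophages of tumor-free mice. The sources used here do not say how many animals stood behind a MAM library, and p-values therefore measure the spread between these libraries, which may be technical. The series also has 12 libraries of sorted type 1 lymphocytes, each from pools of 6 to 8 samples, in 4 groups of 3. They are NK cells (CD49a-CD49b+) and ILC1 (CD49a+CD49b-) of metastasis-free liver (MFL), and CD49a- and CD49a+ NK cells (both CD49b+) of LM.

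Growth factors are secreted or membrane-held proteins that bind receptors on neighboring cells, mostly receptor tyrosine kinases. Macrophages are a known source of IGF, PDGF, VEGF and EGF family ligands during tissue repair, and in tumors these ligands act on cancer cells, fibroblasts and vessels. EGF family ligands such as amphiregulin and HB-EGF are made as membrane precursors that metalloproteases cut free, whereas HGF is secreted as an inactive chain that serine proteases activate. Oncostatin M belongs to the IL-6 family and signals through gp130.

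The sequence just before the transcription start is shown for the members with the largest rise and the largest fall between the subsets, because these genes moved in opposite directions. Of the 9 members, 6 matched the RefSeq promoter table, with 8 windows of 250 bases on build GRCm38.p6 (Igf1, Pdgfa, Pdgfc, Vegfb, Hgf and Areg). Pdgfb, Hbegf and Osm had no entry. The Igf1 window is chr10:87860861-87861110 on the plus strand and the Areg window is chr5:91139349-91139598 on the plus strand, both written 5′ to 3′ with motif matches in capitals.
Igf1: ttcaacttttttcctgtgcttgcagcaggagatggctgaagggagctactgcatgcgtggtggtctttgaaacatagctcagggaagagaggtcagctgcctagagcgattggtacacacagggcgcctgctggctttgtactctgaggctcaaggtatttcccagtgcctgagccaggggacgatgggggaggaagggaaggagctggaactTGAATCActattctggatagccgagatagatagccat
Areg: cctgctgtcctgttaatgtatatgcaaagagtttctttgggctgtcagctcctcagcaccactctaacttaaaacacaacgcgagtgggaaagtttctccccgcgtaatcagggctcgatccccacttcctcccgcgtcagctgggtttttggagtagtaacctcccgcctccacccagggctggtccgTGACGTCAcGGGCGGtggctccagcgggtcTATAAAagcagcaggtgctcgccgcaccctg
The motifs searched on both strands were the TATA box (TATAAA), the cAMP response element (TGACGTCA) and the GC box (GGGCGG). A loose AP-1 pattern (TGANTCA) and the STAT site (TTCNNNGAA) were also searched, with any base at N. No match of one motif overlapped a match of another. In Igf1 the capitals mark a single match of the loose AP-1 pattern, with A at N, that begins 37 bases before the start. In Areg they mark a cAMP response element at 61 bases, a GC box at 52 bases and a TATA box at 31 bases before the start. Among all 32851 windows of this length, 12.4% held the TATA box, 6.75% the loose AP-1 pattern and 1.55% the cAMP response element. The STAT site was held by 7.02% and the GC box by 32.7%. GC boxes also stood in the windows of Pdgfa and Vegfb, whereas none of these 5 motifs was found in the windows of Pdgfc or Hgf, and none of the 6 matched members held the STAT site. A match of letters describes the window only.

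The MAM libraries held 21278959 to 32267015 estimated reads, and the lymphocyte libraries held 8795721 to 14386834. The sort was visible in the counts, since Adgre1, which encodes F4/80, averaged 958 CPM (counts scaled to a common library size by edgeR) in F4/80high and 146 in F4/80low MAMs. Over all 13759 genes, 27.8% were called higher and 27.1% lower in F4/80high MAMs (edgeR adjusted p under 0.1). The counts of markers that follow stand against these shares. Of 10 macrophage markers, 9 were higher in F4/80high MAMs and the summed level was 22905 to 31483 CPM against 7293 to 9189. All 9 classical monocyte markers were lower in F4/80high MAMs, at 474 to 597 CPM against 2188 to 2492 summed. Dendritic cell markers were also lower, 7 of 8, with a sum of 13.6 to 20.4 CPM against 463 to 802, and Cd209a, Flt3 and Zbtb46 were all present in F4/80low MAMs. Neutrophil markers were lower in 7 of the 8 measured, with a sum of 80.8 to 116 CPM against 371 to 581, although Mmp9 alone averaged 353 CPM in F4/80low MAMs. Ly6g, Camp, Elane and Mpo were not found among the genes counted in MAMs. Eosinophil markers (2 of 3 lower) summed to 4.11 to 6.62 against 78.0 to 112 CPM. Epcam and Cdh1, the 2 tumor epithelium markers measured of 7, summed to 8.30 to 11.8 against 197 to 281 CPM. Cdh1 made most of this sum, with means of 234 CPM for Cdh1 and 13.9 CPM for Epcam in F4/80low MAMs. The keratins of that list were not found among the genes counted in MAMs. Fibroblast and stellate cell markers were higher in F4/80high MAMs in 4 of 6, at 261 to 559 against 46.2 to 153 CPM. Genes known to rise during tissue dissociation, such as Nr4a1 and Junb, were lower in F4/80high MAMs in 12 of 14, at 5748 to 8582 against 12354 to 17073 CPM, and the mitochondrial share was 1.48% to 1.73% against 1.04% to 1.21%. Of the other lists, T and NK cell markers were lower in 4 of 9 and B cell markers were higher in 2 of 6. Endothelial markers were higher in 2 and lower in 3 of 5. Hepatocyte markers were higher in 1 of 4, which was Trf at 517 against 229 CPM, and Alb had 4.36 against 2.25 CPM and was not called. The 4 erythroid genes and the single mast cell and basophil gene measured were not called. These bulk libraries cannot tell fewer cells of a type from less RNA per cell.

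**Figure D1:**
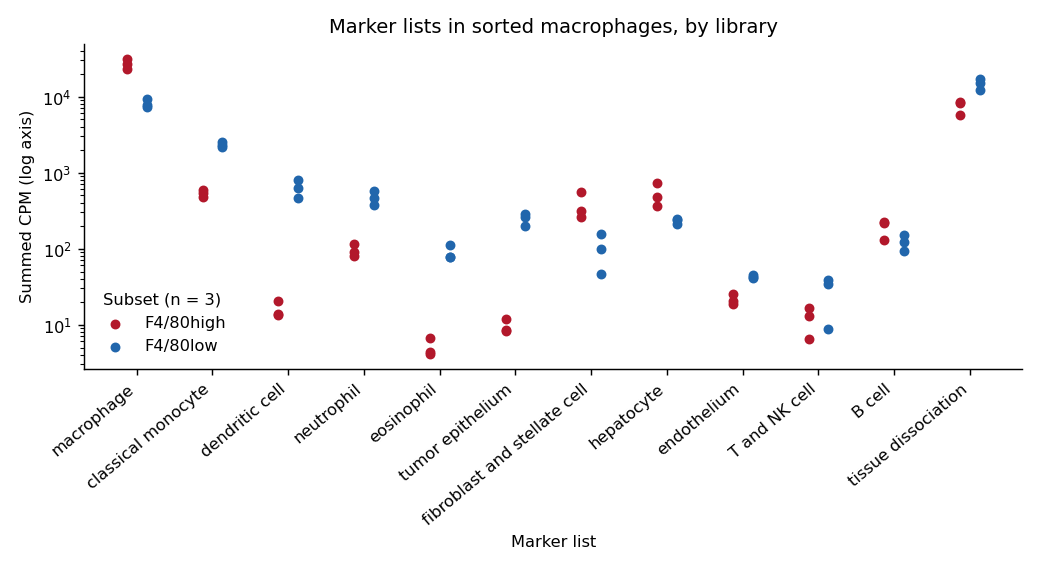
Summed CPM of each marker list (log axis) in the 6 MAM libraries, 1 point per library. The subsets separate for macrophage, classical monocyte, dendritic cell, neutrophil, eosinophil, tumor epithelium, fibroblast, hepatocyte, endothelium and tissue dissociation lists, and overlap for T and NK cell and B cell lists. Trf holds most of the hepatocyte sum, and Cdh1 most of the tumor epithelium sum.

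Between the subsets 8 of the 9 growth factor genes differed. Igf1, Pdgfc, Vegfb, Pdgfa and Hgf were higher in F4/80high MAMs, and Osm, Areg and Hbegf were lower, whereas Pdgfb was not called. Calls were made with edgeR's quasi-likelihood test at a Benjamini-Hochberg adjusted p under 0.1 over the whole table. The subsets differed at most genes: 54.9% of the 13759 genes were called in either direction, 27.8% higher and 27.1% lower in F4/80high MAMs. For the same 8 members the 3 libraries of one subset did not overlap those of the other, and 58.4% of all genes had such libraries. The median size of the log2 fold change, without its sign, was 1.61 over the members and 0.39 over all genes, and the signed medians were 0.88 and 0.01. The members were chosen with earlier results of these data known, so this contrast of sizes is no test of them. Thus the count of members called stood against a high background, and the sizes that follow are relative to a median of all genes near 0.

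**Figure D2:**
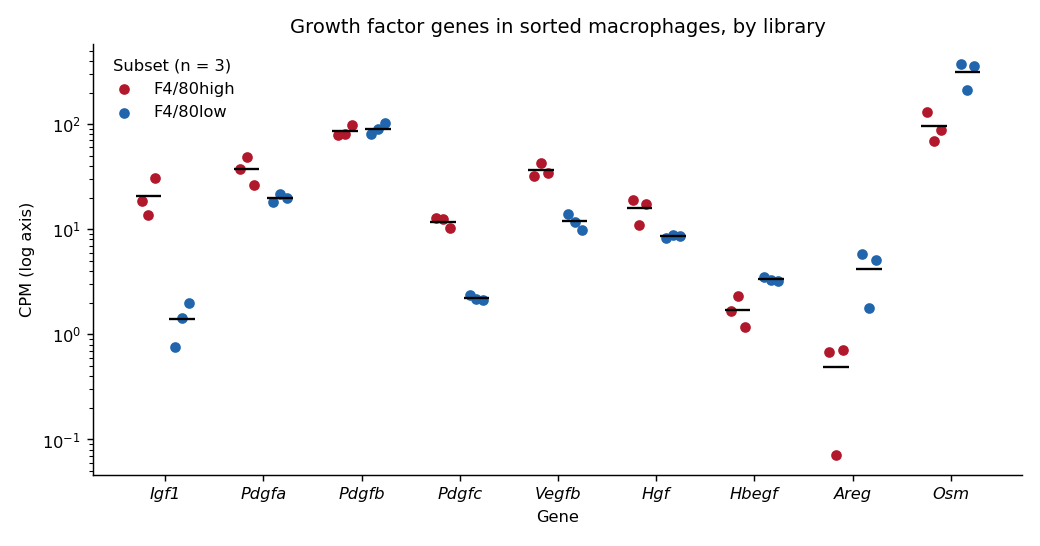
CPM of each growth factor gene (log axis) in the 3 F4/80high and 3 F4/80low MAM libraries, with 1 point per library and a line at the mean. The points of Pdgfb overlap and those of the other 8 genes do not, with F4/80low above F4/80high for Hbegf, Areg and Osm.

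Igf1 encodes insulin-like growth factor 1, the ligand of the IGF1 receptor and a trophic factor for epithelial and stromal cells. In F4/80high MAMs the 3 libraries had 18.5, 13.8 and 30.5 CPM of Igf1, and in F4/80low MAMs they had 0.755, 1.43 and 1.99 CPM. Every F4/80high library stood far above every F4/80low library. The means were 21.0 ± 8.63 and 1.39 ± 0.618 CPM (SD, n = 3 each), a log2 fold change of 3.93 (SE 0.40, 95% interval 3.02 to 4.85, edgeR adjusted p = 0.000113), or 15.3-fold. Only 0.327% of all genes in the table had a higher log2 fold change. The gene (ENSMUSG00000020053.19) lies on the plus strand of GRCm39 chromosome 10, from 87693642 to 87772904. Fibroblasts also make IGF1. Among the fibroblast markers, Col1a2 averaged 195 CPM in F4/80high and 30.3 CPM in F4/80low MAMs. Col3a1 averaged 131 and 38.2 CPM, and both were called, whereas Col1a1 and Acta2 were not called. The fibroblast marker sum was higher in F4/80high MAMs, as Igf1 was, and stood at 261, 559 and 314 CPM in these 3 libraries in the order given for Igf1. Its part in the Igf1 result was not tested.

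The 3 genes whose profile over the 6 libraries was closest to Igf1 were Stab1, Mexis and Itsn1, with root mean square distances of 0.321, 0.327 and 0.398 in centered log2 CPM among genes of at least 5 CPM. Stab1 encodes stabilin-1, a scavenger receptor of macrophages and sinusoidal endothelium. Its mean was 3463 ± 748 CPM in F4/80high and 315 ± 65.2 CPM in F4/80low MAMs (SD, n = 3). The same measure for Areg gave Tnfrsf9 at 0.539, Klrb1b at 0.550 and Rnase6 at 0.593. Areg had only 2 to 22 reads in the F4/80high libraries, so its distances cannot be set against those of Igf1.

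Proteins that bind IGF1 decide how much of it reaches the receptor, and of 13 genes of IGF binding and cleavage 5 were measured. Of these 5, 2 were higher in F4/80high MAMs, none was lower and 3 were not called, whereas 27.8% of all genes were called higher. Igfbp4, which encodes an IGF-binding protein, had 282 to 372 CPM in F4/80high and 22.2 to 29.7 CPM in F4/80low MAMs, with a log2 fold change of 3.69 (SE 0.15, edgeR adjusted p = 1.94e-06). Htra1, a secreted serine protease, had 70.1 ± 43.4 against 10.4 ± 2.94 CPM (SD, n = 3) and a log2 fold change of 2.76 (SE 0.43, edgeR adjusted p = 0.00105). Neither gene overlapped between the subsets. Transcripts of the receptor itself differed little, with 13.4 ± 0.965 CPM of Igf1r in F4/80high and 15.0 ± 0.816 CPM in F4/80low MAMs (SD, n = 3; log2 fold change -0.16, edgeR adjusted p = 0.260). Igf2, the other IGF ligand, was not called at 1.37 ± 1.62 and 0.754 ± 0.663 CPM.

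The PDGF chains encoded by Pdgfa, Pdgfb and Pdgfc dimerize and bind PDGFRα and PDGFRβ on mesenchymal cells. PDGF-B, which recruits pericytes, was the main chain at the transcript level. The F4/80high libraries had 78.2, 81.0 and 99.0 CPM of Pdgfb and the F4/80low libraries 80.3, 89.6 and 102 CPM. The ranges overlapped almost wholly. The means were 86.1 ± 11.3 and 90.8 ± 11.1 CPM (SD, n = 3), and the log2 fold change of -0.08 (SE 0.12, edgeR adjusted p = 0.643) had a 95% interval from -0.36 to 0.21. Its sign turned to 0.02 with upper quartile scaling and, separately, to 0.02 without the third F4/80low library.

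Pdgfc encodes PDGF-C, whose growth factor domain is freed from a CUB domain by proteolysis. It had 12.8, 12.4 and 10.3 CPM in F4/80high and 2.36, 2.15 and 2.12 CPM in F4/80low MAMs. The libraries of each subset lay close together and the gap between subsets was wide. The means were 11.8 ± 1.34 and 2.21 ± 0.133 CPM (SD, n = 3), with a log2 fold change of 2.42 (SE 0.17, 95% interval 2.04 to 2.80, edgeR adjusted p = 1.51e-05), or 5.34-fold. Pdgfa, which encodes the PDGF-A chain, had 37.2, 48.9 and 26.5 CPM in F4/80high and 18.3, 21.4 and 19.8 CPM in F4/80low MAMs. The third F4/80high library was the lowest of its subset and still above all F4/80low libraries. The means were 37.5 ± 11.2 and 19.9 ± 1.56 CPM, with a log2 fold change of 0.92 (SE 0.20, 95% interval 0.46 to 1.37, edgeR adjusted p = 0.00593). The F4/80high library with 48.9 CPM was also the one with the highest fibroblast sum (559 CPM), and the part of stromal cells was not tested.

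Counts were then divided by the length of the merged exons to compare the chains with each other. The summed level of the 3 chains per kilobase was 27.6 ± 1.56 CPM per kb in F4/80high and 24.6 ± 2.69 in F4/80low MAMs (SD, n = 3), and the ranges of 25.8 to 28.8 and 22.0 to 27.4 overlapped. The makeup of that sum differed. Pdgfb made 71.3%, 67.7% and 81.0% of it in the F4/80high libraries and 86.1%, 85.8% and 88.1% in the F4/80low libraries. Pdgfc made 7.40%, 6.59% and 5.35% against 1.61%, 1.31% and 1.16%, and Pdgfa 21.3%, 25.7% and 13.6% against 12.3%, 12.9% and 10.7%. Hence Pdgfa and Pdgfc held larger shares in every F4/80high library than in any F4/80low library. These shares had no test of their own. Pdgfa (ENSMUSG00000025856.16, chromosome 5, 138961758 to 138983435, minus strand) and Pdgfc (ENSMUSG00000028019.10, chromosome 3, 80943668 to 81121473, plus strand) share 2552 and 668 exon bases with antisense long noncoding RNAs, 6330403L08Rik and Gm16000. The MAM library kit keeps strand, but whether strand was used in counting is not given in the sources used here, so reads of such pairs may not be told apart. Pdgfb (ENSMUSG00000000489.8) lies on chromosome 15 from 79880009 to 79899181 on the minus strand and shares no exon bases with another gene.

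**Figure D3:**
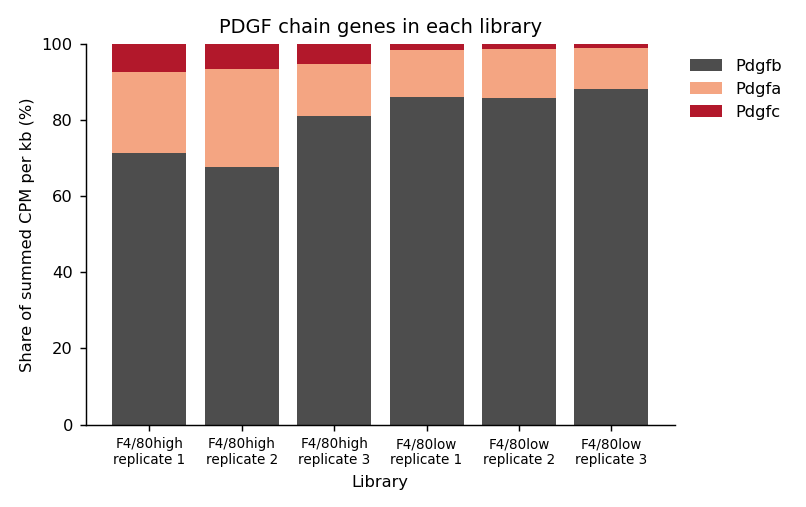
Share of each PDGF chain gene in the summed CPM per kb of Pdgfa, Pdgfb and Pdgfc, as stacked bars for the 6 MAM libraries. Pdgfb fills 67.7% to 81.0% of the F4/80high bars and 85.8% to 88.1% of the F4/80low bars, and Pdgfc is the smallest share in all 6.

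Genes for PDGF receptors were low in both subsets and higher in F4/80high MAMs. Pdgfrb had 12.3 to 20.9 CPM in F4/80high and 2.05 to 7.98 CPM in F4/80low MAMs (log2 fold change 1.74, SE 0.45, edgeR adjusted p = 0.0128). PDGFRβ is a defining receptor of fibroblasts and pericytes, and Pdgfrb is also one of the fibroblast markers given above. Plau, encoding urokinase, and Plaur, encoding its receptor, belong to the proteolytic system that acts on several of these ligands. Plau was higher in F4/80high MAMs at 286 to 424 against 132 to 138 CPM (log2 fold change 1.45, edgeR adjusted p = 9.22e-05), and Plaur was lower at 53.4 to 73.1 against 123 to 225 CPM (log2 fold change -1.48, edgeR adjusted p = 0.000709).

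Vegfb encodes VEGF-B, a ligand of VEGFR1 and neuropilin-1. It had 32.2, 42.7 and 34.1 CPM in F4/80high and 14.1, 11.7 and 9.90 CPM in F4/80low MAMs. The lowest F4/80high library had more than any F4/80low library. The means were 36.3 ± 5.57 and 11.9 ± 2.12 CPM (SD, n = 3), with a log2 fold change of 1.61 (SE 0.16, 95% interval 1.24 to 1.97, edgeR adjusted p = 9.36e-05). The gene (ENSMUSG00000024962.14) lies on the minus strand of chromosome 19 from 6958447 to 6965127, and it overlaps Trpt1 without shared exon bases. The fibroblast and macrophage marker sums moved in the direction of all 5 members that were higher in F4/80high MAMs. Among the fibroblast markers Dcn had 10.5 against 3.34 CPM and was called, and Col1a1 had 22.6 against 19.9 CPM and was not. Lum, Lrat and Reln were not found among the genes counted in MAMs. The part of fibroblasts in the 5 results was not tested.

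Vegfa, which encodes the principal angiogenic VEGF and was not among the 9 members, moved the other way. It had 49.5 to 76.2 CPM in F4/80high and 137 to 394 CPM in F4/80low MAMs, a log2 fold change of -2.19 (SE 0.35, edgeR adjusted p = 0.00129). The receptors split as well. Nrp1, the neuropilin-1 gene, had 232 to 340 against 74.4 to 83.6 CPM (log2 fold change 1.80, edgeR adjusted p = 3.64e-05), and Nrp2 had 135 to 144 against 63.7 to 83.8 CPM (log2 fold change 0.90, edgeR adjusted p = 0.000259). Flt1, encoding VEGFR1, was lower at 4.41 to 6.12 against 35.4 to 43.2 CPM (log2 fold change -2.82, edgeR adjusted p = 4.3e-06). Kdr, encoding VEGFR2 and also one of the endothelial markers, was lower at 5.18 to 7.23 against 16.0 to 19.4 CPM (log2 fold change -1.52, edgeR adjusted p = 0.000125).

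Hgf encodes hepatocyte growth factor, the ligand of the receptor MET. It had 19.0, 10.9 and 17.5 CPM in F4/80high and 8.34, 8.88 and 8.56 CPM in F4/80low MAMs. The subsets did not overlap, but the second F4/80high library stood only a little above the F4/80low range. The means were 15.8 ± 4.26 and 8.59 ± 0.271 CPM (SD, n = 3), with a log2 fold change of 0.88 (SE 0.20, 95% interval 0.42 to 1.34, edgeR adjusted p = 0.00745). That library had the highest fibroblast sum of all 6 (559 CPM). The gene (ENSMUSG00000028864.8) lies on the plus strand of chromosome 5 from 16758041 to 16828178, and it shares 484 exon bases with Gm43489 on its strand and 211 with antisense Gm31113.

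Activation of HGF needs serine proteases, which the inhibitors encoded by Spint1 and Spint2 restrain. Both inhibitor genes were lower in F4/80high MAMs. Spint2 had 0.248 to 0.901 against 26.4 to 42.7 CPM (log2 fold change -6.10, SE 0.36, edgeR adjusted p = 7.19e-06), and Spint1 had 50.7 to 58.2 against 266 to 291 CPM (log2 fold change -2.36, edgeR adjusted p = 1.6e-06). Met was lower too, at 6.06 to 15.1 against 24.9 to 31.3 CPM (log2 fold change -1.60, edgeR adjusted p = 0.00448). Among serine protease genes, Hpn was higher at a low level, 4.21 against 2.19 CPM (edgeR adjusted p = 0.0147). St14 was not called, at 3.69 against 4.88 CPM (edgeR adjusted p = 0.162). Hgfac was not found among the genes counted in MAMs. Epcam and Cdh1 and the dendritic cell markers fell in the same direction as Spint1 and Spint2, and their part in these differences was not tested.

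Hbegf encodes heparin-binding EGF-like growth factor, a ligand of EGFR and ERBB4. It had 1.67, 2.34 and 1.17 CPM in F4/80high and 3.51, 3.31 and 3.24 CPM in F4/80low MAMs, from 36 to 107 reads a library. Levels were low in both subsets and did not overlap. The means were 1.72 ± 0.587 and 3.36 ± 0.140 CPM (SD, n = 3), with a log2 fold change of -0.96 (SE 0.29, 95% interval -1.62 to -0.30, edgeR adjusted p = 0.0243). Leaving out 1 library at a time moved the adjusted p up to 0.0637, still a call at 0.1. Hbegf (ENSMUSG00000024486.7, chromosome 18, 36637980 to 36649677, minus strand) shares 831 exon bases with antisense Gm41698.

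Areg encodes amphiregulin, an EGFR ligand linked to epithelial repair and to regulatory T cells. It had 0.675, 0.0709 and 0.713 CPM in F4/80high MAMs, that is 15, 2 and 22 reads, and 5.84, 1.78 and 5.06 CPM in F4/80low MAMs, or 178, 52 and 117 reads. The second library was the lowest of both subsets, and every F4/80low library exceeded every F4/80high library. The means were 0.487 ± 0.361 and 4.23 ± 2.16 CPM (SD, n = 3). The log2 fold change of -3.12 (SE 0.69, edgeR adjusted p = 0.00619) was the least precise of the 9, with a 95% interval from -4.69 to -1.54. The gene (ENSMUSG00000029378.6) lies on the plus strand of chromosome 5 from 91287451 to 91296291. For Egfr, the receptor of both ligands, 0.353 ± 0.187 and 0.528 ± 0.105 CPM were found and the gene was not called (edgeR adjusted p = 0.356).

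Shedding of EGF family ligands depends on ADAM proteases and their iRhom partners. Of 19 measured genes for ligand processing and shedding, 8 were higher and 6 lower in F4/80high MAMs and 5 were not called, with a median log2 fold change of -0.02. Over all genes, 27.8% were called higher and 27.1% lower. Rhbdf1, encoding iRhom1, had 14.8 to 22.9 against 2.90 to 4.73 CPM (log2 fold change 2.33, edgeR adjusted p = 8.85e-05). Rhbdf2, encoding iRhom2, was more abundant and was not called, at 111 ± 11.2 against 119 ± 13.3 CPM (SD, n = 3; log2 fold change -0.10, edgeR adjusted p = 0.490). Adam9 had 274 to 360 against 139 to 170 CPM (log2 fold change 1.01, edgeR adjusted p = 0.000332), and Adam15 had 500.3 to 573 against 319 to 390 CPM (log2 fold change 0.63, edgeR adjusted p = 0.00191). Adam8, a myeloid ADAM gene, was lower at 204 to 243 against 273 to 575 CPM (log2 fold change -0.84, edgeR adjusted p = 0.0215). Adam17, encoding the main sheddase of both members and chosen here for that role with its value known, had 299 ± 26.2 and 223 ± 24.5 CPM (SD, n = 3; log2 fold change 0.43, edgeR adjusted p = 0.0126).

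Osm encodes oncostatin M, and it was the most abundant of the 9 transcripts per kilobase in each of the 6 libraries. The F4/80high libraries had 131, 68.7 and 87.8 CPM and the F4/80low libraries 377, 214 and 360 CPM. No F4/80high library reached the lowest F4/80low library. The means were 95.9 ± 32.0 and 317 ± 90.0 CPM (SD, n = 3), with a log2 fold change of -1.73 (SE 0.28, 95% interval -2.36 to -1.09, edgeR adjusted p = 0.00126), or 3.31-fold lower in F4/80high MAMs. The gene (ENSMUSG00000058755.4) lies on the plus strand of chromosome 11 from 4186420 to 4191026. As for Areg, the second library was the lowest of both subsets.

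The tissue dissociation genes had their lowest sum in the second library of each subset as well, at 5748 CPM in F4/80high and 12354 CPM in F4/80low MAMs. So did the neutrophil (80.8 and 371 CPM), eosinophil (4.11 and 78.0 CPM) and erythroid lists (1.49 and 2.08 CPM). Hbegf did not, and its highest F4/80high value, 2.34 CPM, was in the second library. The tissue dissociation genes were also higher in F4/80low MAMs, in the direction of Osm, Areg and Hbegf. The dendritic cell, neutrophil, eosinophil and monocyte markers were too, and the part of each in these 3 results was not tested. The other IL-6 family genes named by the rule fell with Osm. Lif, encoding leukemia inhibitory factor, had 2.02 to 4.01 CPM in F4/80high and 13.8 to 19.9 CPM in F4/80low MAMs (log2 fold change -2.63, SE 0.26, edgeR adjusted p = 0.000109). Clcf1, encoding a ligand of the CNTF receptor, had 2.79 to 5.74 against 16.9 to 22.3 CPM (log2 fold change -2.36, SE 0.28, edgeR adjusted p = 0.000234). Of the receptors, Lifr was higher in F4/80high MAMs at 55.9 to 109 against 38.7 to 45.8 CPM (log2 fold change 0.95, edgeR adjusted p = 0.00699), and Il6st, encoding gp130, was lower at 66.3 ± 6.97 against 90.0 ± 12.2 CPM (log2 fold change -0.44, edgeR adjusted p = 0.0167). Osmr, the oncostatin M receptor gene, was not found among the genes counted in MAMs.

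Most of the other ligands of the same families that were measured were lower in F4/80high MAMs. Of 21 such ligands 13 were measured, and 1 was higher, 9 were lower and 3 were not called in F4/80high MAMs, with a median log2 fold change of -1.50, whereas 27.1% of all genes were called lower. Several of the called ligands were near the floor, such as Vegfd (0.785 against 0.154 CPM), Nrg4 (0.135 against 0.607), Vegfc (0.366 against 1.05) and Egf (0.691 against 1.51), and 7 rather than 10 were called when at least 1 CPM in 3 libraries was required. Dendritic cell (7 of 8), neutrophil (7 of 8), classical monocyte (9 of 9) and tissue dissociation genes (12 of 14) were lower in F4/80high MAMs as well, and their part in these ligands was not tested. Of 19 receptors 17 were measured, and 7 were higher, 6 lower and 4 not called, with a median of -0.16. Over all genes, 27.8% were called higher and 27.1% lower. Igf2r, whose product clears IGF2 from the cell surface, was lower at 13.7 to 25.1 against 29.5 to 48.6 CPM (log2 fold change -0.86, edgeR adjusted p = 0.0219). All genes together had a median of 0.01.

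**Figure D4:**
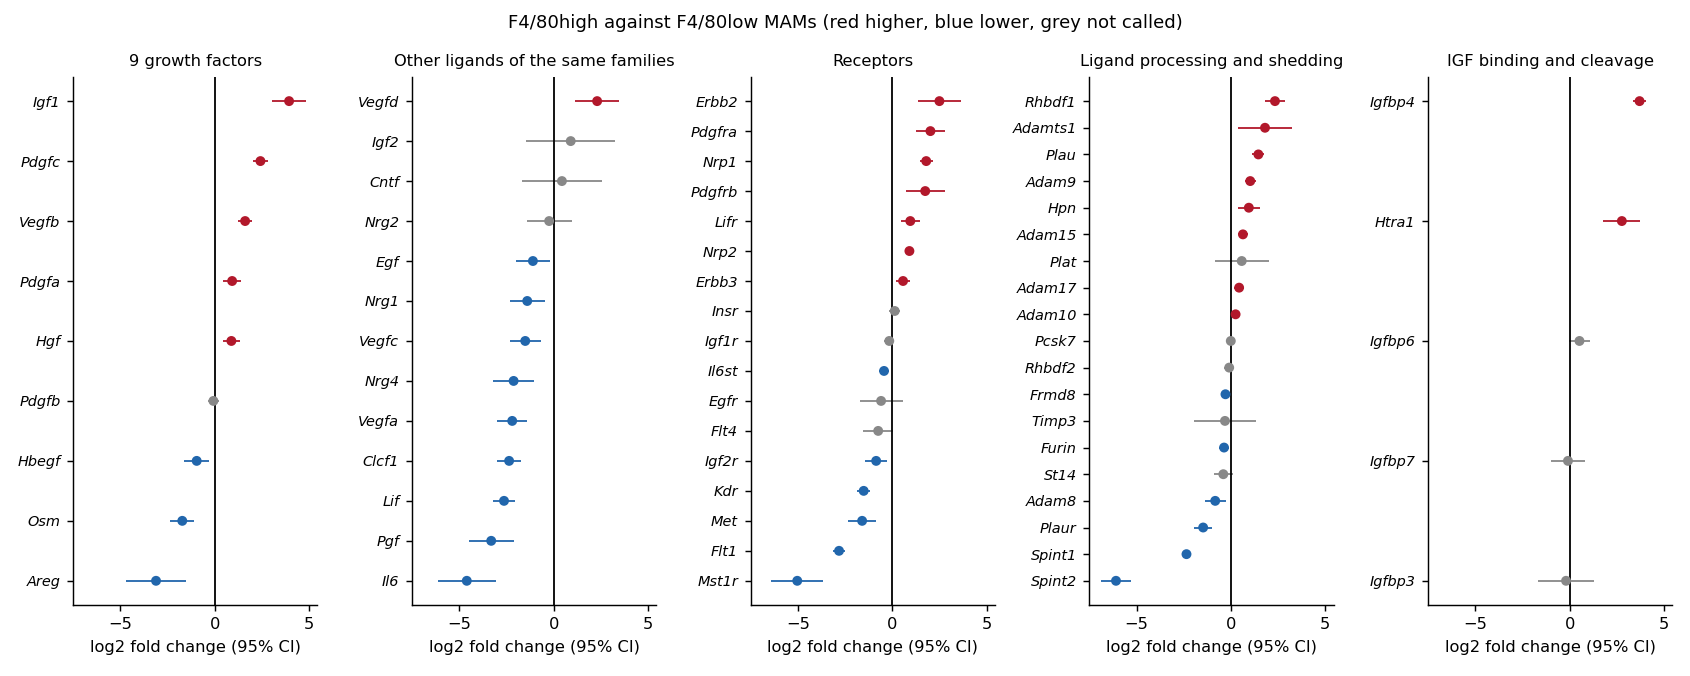
Log2 fold change of F4/80high against F4/80low MAMs with its 95% interval for the 9 growth factors and the measured genes of 4 lists, red where called higher, blue where called lower and grey where not called. Among the growth factors 5 points are red and 3 are blue, and among the other ligands 1 is red and 9 are blue.

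Levels per kilobase gave the order of the members within each subset. In F4/80high MAMs it ran from Osm (42.2 ± 14.1 CPM per kb, SD, n = 3) through Pdgfb (20.3 ± 2.66), Vegfb (11.2 ± 1.71) and Pdgfa (5.55 ± 1.65) to Igf1 (2.05 ± 0.843), Pdgfc (1.77 ± 0.200), Hgf (1.48 ± 0.400), Areg (0.398 ± 0.295) and Hbegf (0.337 ± 0.115). The library ranges of neighbors in this order overlapped for Igf1 and Pdgfc, for Pdgfc and Hgf, and for Areg and Hbegf. In F4/80low MAMs it ran from Osm (139.5 ± 39.6) through Pdgfb (21.4 ± 2.61), Vegfb (3.66 ± 0.650), Areg (3.46 ± 1.77), Pdgfa (2.94 ± 0.231), Hgf (0.806 ± 0.0254), Hbegf (0.657 ± 0.0275) and Pdgfc (0.330 ± 0.0199) to Igf1 (0.136 ± 0.0604). Here Vegfb and Areg, and Areg and Pdgfa, overlapped. With the longest annotated transcript as the length, Osm and Pdgfb stayed first and second in both subsets, Pdgfc passed Igf1 and Hbegf passed Areg in F4/80high MAMs, and Pdgfa moved up to the third place in F4/80low MAMs. Osm made 59.0%, 40.7% and 46.4% of the summed level of all 9 genes in the F4/80high libraries and 83.6%, 75.0% and 81.4% in the F4/80low libraries.

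The lymphocyte libraries were made with another kit and normalized apart, so their levels are only set beside those of the MAMs. Their mitochondrial share ran from 2.20% to 14.4%. It was highest in the first libraries of MFL ILC1 (14.4%) and MFL NK cells (11.6%), and its part in the levels below was not tested. Igf1, Pdgfc and Hgf were at 0 in 10, 11 and 11 of the 12 lymphocyte libraries and were not tested, and of Hgf 73 reads stood in 1 MFL NK library only. The other 6 members were tested across the 12 libraries. Pdgfb was the highest member in MFL NK cells, at 74.1, 87.5 and 86.8 CPM, and had 18.8, 67.1 and 55.0 CPM in MFL ILC1. It had 27.3, 76.4 and 37.7 CPM in LM CD49a- NK cells and 35.1, 49.3 and 14.9 CPM in LM CD49a+ NK cells. All 3 MFL ILC1 libraries lay below the MFL NK libraries, and the LM groups overlapped each other, but Pdgfb was not called in any lymphocyte comparison (edgeR adjusted p 0.769 to 0.988).

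Osm was the single member called in a lymphocyte comparison. Its CPM were 46.0, 37.8 and 28.0 in MFL NK cells. In MFL ILC1 they were 10.8, 7.17 and 4.26. The groups did not overlap. The means were 37.3 ± 8.98 and 7.41 ± 3.27 CPM (SD, n = 3), with a log2 fold change of -2.33 in ILC1 (SE 0.66, 95% interval -3.71 to -0.94, edgeR adjusted p = 0.0849), where 3.06% of 13594 genes were called. The call was lost at a threshold of 0.05, with the replicate number as a block (edgeR adjusted p = 0.115) and without any 1 of the 6 MFL libraries (edgeR adjusted p 0.122 to 0.411). DESeq2 called Osm, with a log2 fold change of -2.29 and an adjusted p of 0.00793, and over all settings the log2 fold change stayed between -2.70 and -2.05. In LM the CD49a- NK cells had 37.7, 25.6 and 25.8 CPM and the CD49a+ NK cells 15.6, 8.37 and 36.3 CPM, which overlapped.

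No member was called in the other lymphocyte comparisons by edgeR, and none had an unadjusted p under 0.05. This held for LM CD49a+ against LM CD49a- NK cells, where 0.14% of genes were called, for LM CD49a- against MFL NK cells, where 0.0736% were called, and for the difference between the CD49a-linked contrasts of LM and MFL, where 1.03% were called. DESeq2 also called 0 members in these 3 comparisons. For Osm the difference between the contrasts was 1.77 on the log2 scale (95% interval -0.11 to 3.64, edgeR adjusted p = 0.617), so the contrast in MFL was not shown to differ from that in LM. Vegfb averaged 6.49 to 9.63 CPM over the 4 groups, and Hbegf was at 15.6 ± 5.41 CPM in MFL ILC1 against 2.79 ± 1.82 in MFL NK cells (log2 fold change 2.47, 95% interval -0.63 to 5.57, edgeR adjusted p = 0.898). Pdgfa stayed at or below 4.61 CPM in every library. Areg reached 12.6 CPM in 1 LM CD49a+ NK library and 7.88 CPM in 1 LM CD49a- NK library, and stood at or below 1.20 CPM in the other 10.

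**Figure D5:**
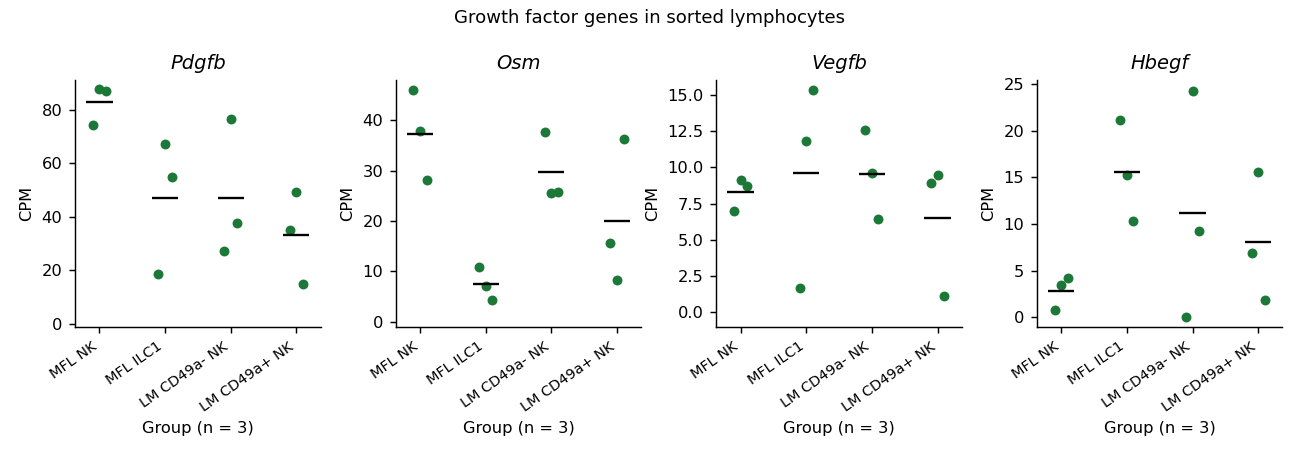
CPM of Pdgfb, Osm, Vegfb and Hbegf in the 12 lymphocyte libraries, 1 point per library with a line at the mean of each group of 3. The Osm points of MFL ILC1 lie below those of MFL NK cells, while the LM groups overlap for all 4 genes.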

How the data were processed

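MAM libraries were prepared with the Nextflex Rapid Directional kit and poly(A) beads, and lymphocyte libraries with the SMARTer Stranded Total RNA-Seq Pico kit. The authors deposited 1 table of estimated counts per gene for each cell class, made with Trim Galore and Salmon (1.10.0 for MAMs, 1.5.0 for lymphocytes) on GRCm39 and not normalized. The study's RNA-seq methods, which describe the lymphocytes, name a GENCODE release and tximport for summing to genes, and whether these were used for the MAM table, made with another Salmon version, is not given in the sources used here. That table holds 13759 genes, none with fewer than 37 reads in all. The lymphocyte table holds 54309 genes, of which 13594 passed filterByExpr.

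Ensembl identifiers were matched to symbols, positions and exon lengths of GENCODE vM39 (13726 of 13759 and 53700 of 54309 matched). Counts, whole numbers as deposited, were tested within each table with edgeR (TMM scaling, quasi-likelihood test, Benjamini-Hochberg adjustment over all genes tested, called at an adjusted p under 0.1), using the 6 MAM libraries in one fit and all 12 lymphocyte libraries in another. CPM used TMM library sizes, and CPM per kb divided them by merged exon length. Total counts of 8795721 to 32267015 per library set the counting precision, and the common biological coefficient of variation was 0.162 in MAMs and 0.891 in lymphocytes. The alternatives were DESeq2 size factors, upper quartile scaling, DESeq2, limma-voom, 2 other filters, an adjusted p under 0.05, a replicate block and leaving out each library. The fits were tested on simulated counts. Replicate libraries of MAMs differed by more than sampling noise (chi-square per degree of freedom of at least 23.4).

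The members and gene lists were chosen with earlier results of these data known. All 9 members were named. Of the pathway lists, genes were named when called, at 5 CPM or more in one subset and without overlap, at most 4 per list and direction, and the 3 closest profiles were named for the members with the largest rise and fall. Igf1r, Igf2, Egfr, Il6st, Vegfd, Vegfc, Nrg4, Egf, Adam17, Rhbdf2, Hpn and St14 were named outside this rule after their values were seen. Software versions were Python 3.11.15, R 4.3.3, edgeR 4.0.16, limma 3.58.1 and DESeq2 1.42.0.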

Additional observations from a re-analysis of the deposited data

How the results depend on the processing

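Between the MAM subsets 8 members were called under all alternatives run, Pdgfb stayed uncalled, and 6550 to 7234 genes were called without 1 library against 7555 with all. Only Pdgfb changed sign, to 0.015 with upper quartile scaling, and over -0.20 to 0.020 when 1 library was left out, the positive value without F4/80low replicate 3. Upper quartile scaling put the median of all genes at 0.10 and 59.9% of calls higher, against 50.6%. The replicate block gave 8 members and 7512 genes called. Same-numbered MAM libraries correlated at 0.172, -0.0145 and 0.0272 after group means were removed, and 2 of 3 pairs correlated better across numbers. The median was 0.0272 within and -0.0603 across numbers. Same-numbered lymphocyte pairs gave -0.0452 to 0.0981, with medians of 0.0326 within and -0.0107 across numbers. The study collected the lymphocyte pools in 3 independent sortings, and whether the numbers follow the sortings is not given in the sources used here. The main fits did not use the numbers, and the replicate block was an alternative.

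In lymphocytes the calls depended on the settings. In MFL ILC1 against MFL NK cells the members called fell from 1 to 0 at an adjusted p under 0.05 and with the replicate block, and ranged from 0 to 1 without 1 library. DESeq2 called 667, 543, 161 and 349 genes in the ILC1, LM CD49a+, LM CD49a- and interaction comparisons, against 416, 19, 10 and 140 with edgeR. Without the filter 200, 158 and 264 genes were called in the last 3, and at 0.05 they gave 8, 4 and 90. Without 1 library the 4 counts ranged over 268 to 562, 5 to 267, 1 to 110 and 75 to 256. The members called there stayed at 0 in the last 3.

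Log2 fold changes of uncalled lymphocyte members that changed sign did so almost only when 1 library was left out, over the ranges that follow. For LM CD49a+ against CD49a- NK cells, Pdgfa gave -2.61 to 4.18 (and -1.18 with the replicate block), Areg -2.17 to 8.73, Pdgfb -0.91 to 0.027 and Hbegf -1.35 to 0.81. For LM CD49a- against MFL NK cells, Vegfb gave -0.049 to 0.41, Pdgfa -1.73 to 4.69 and Areg -1.72 to 7.92. For ILC1 against NK cells Vegfb gave -0.29 to 0.71. In the interaction Pdgfa gave -4.03 to 2.76, Pdgfb -0.093 to 0.85 and Areg -5.76 to 5.15. The cause of these changes was not tested. With a coefficient of variation of 0.891 the lymphocyte libraries limit what can be called.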
